A study of Mus musculus with 2 samples.

Results

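The mitochondrial ribosomal protein genes are the nuclear genes named Mrpl, for the large subunit, or Mrps, for the small subunit, followed by a number. Symbols were given to the 16881 RefSeq transcripts of the deposited table, and every symbol of that form was kept, without regard to its values. This found 78 genes, 49 of the large and 29 of the small subunit. They were described in immortalised fibroblasts from C57BL/6 mouse embryos (MEFs), in 1 library of p65-/- cells (p65-null) and 1 library of p65+/+ cells (wild-type). p65, the product of Rela, is a subunit of the transcription factor NF-kB, and the design asks which genes differ in expression when it is missing. The labels name no stimulus, and the sources used here do not give the number of clones or embryos behind each line or how the lines were immortalised. With 1 library per genotype no difference has a replicate check, genotype and culture cannot be told apart, and no p-value is given.

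The mitochondrial ribosome translates the few proteins encoded by mitochondrial DNA, all of them core parts of the respiratory chain and of ATP synthase. Its RNAs come from the mitochondrial genome, while its proteins are made in the cytosol and imported, so that many nuclear genes must be expressed together. Many of the proteins descend from those of bacterial ribosomes, and others are found only in mitochondria. Promoters of nuclear genes for mitochondrial proteins often carry sites for the factors NRF-1 and YY1 and for GABP, a factor of the ETS family that is also called NRF-2.

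The p65-null library held 15441394 fragments and the wild-type library 20794476. Levels are given as normalised CPM, counts of fragments per 1000000 with library sizes adjusted by TMM, a trimmed mean of ratios between the libraries. Rela had 13.1 CPM in the p65-null library, against 90.5 CPM in the wild-type library, and was thus 6.90-fold lower; the sources used here do not say which exons were deleted. All 10 fibroblast markers looked up reached 1 CPM in both libraries. Their summed level was 24752 CPM in the p65-null and 12114 CPM in the wild-type library, but single markers differed in direction. Col1a1, Col1a2, Col3a1, Vim, Fn1, S100a4 and Pdgfra were higher in the p65-null library, while Thy1, Dcn and Pdgfrb were lower there. The summed markers of epithelial, endothelial, blood, skeletal muscle and neural cells lay between 1.16 and 51.0 CPM in the p65-null and between 0.283 and 87.0 CPM in the wild-type library, where Cdh1 and Epcam were at 0; Ptprc and Cdh5 were at 0 in the p65-null library. Whether these differences bear on the values below was not tested.

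Promoter windows of 300 bases, reaching from 250 bases before to 50 bases after a gene's start, were taken from a RefSeq table of the GRCm38.p6 assembly, which held 69 of the 78 genes. On either strand, the ETS core CCGGAAG was found in the windows of 26 of the 69 genes (37.7%), against 20.7% of the 9642 measured genes with a window. The YY1 core AAGATGGCG was found in 8 (11.6%, against 3.71%) and the NRF-1 core GCGCATGC in 8 (11.6%, against 6.14%). The NF-kB forms GGGACTTTC or GGAATTTCC were found in 0 of the 69, against 0.799% of the measured genes. Only these exact strings were searched for NF-kB, and they are rare among genes at large. The 0 therefore does not show that these windows lack NF-kB sites. Over all 27025 genes of the promoter table the shares were 9.93% for the ETS core, 1.64% for the YY1 core, 3.05% for the NRF-1 core and 0.784% for the NF-kB forms. The ETS core was in 15 of 43 large subunit windows (34.9%) and 11 of 26 small subunit windows (42.3%), and the NRF-1 core in 7 (16.3%) and 1 (3.85%). A match is a string of letters and not a shown binding site, and none of the 4 motifs' letters overlap another's in the stretches printed here.

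The 250 bases before the start are given for 6 genes, 5′ to 3′ on the strand of the gene, with the letters of any of these motifs in capitals. The start is that of the promoter table, and the first bases of the matched transcript lie within each of these windows. Gene spans given elsewhere cover all RefSeq transcripts of a gene, so those of Mrpl23 and Mrpl1 begin before the stretch printed here. Mrpl23, Mrpl1 and Mrpl50 are shown because their RNA levels differed most between the libraries, and no motif letters were found in these stretches. Mrpl22 is shown for an ETS core followed by an NRF-1 core, Mrpl43 for a pair of ETS cores, and Mrps11 for a YY1 core on the other strand, in a stretch within which the divergent gene Mrpl46 has its start.
Mrpl23, chr7:142532782-142533031, plus strand: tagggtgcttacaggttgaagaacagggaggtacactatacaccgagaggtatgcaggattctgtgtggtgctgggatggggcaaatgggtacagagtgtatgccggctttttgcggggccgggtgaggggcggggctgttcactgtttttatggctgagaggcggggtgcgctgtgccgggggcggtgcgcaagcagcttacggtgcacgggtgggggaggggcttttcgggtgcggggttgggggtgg
Mrpl1, chr5:96209865-96210114, plus strand: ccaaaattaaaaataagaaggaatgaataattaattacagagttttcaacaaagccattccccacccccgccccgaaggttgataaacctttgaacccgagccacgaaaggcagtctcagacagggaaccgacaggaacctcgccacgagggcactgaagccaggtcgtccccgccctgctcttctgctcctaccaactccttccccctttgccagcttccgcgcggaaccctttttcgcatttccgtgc
Mrpl50, chr4:49521084-49521333, minus strand: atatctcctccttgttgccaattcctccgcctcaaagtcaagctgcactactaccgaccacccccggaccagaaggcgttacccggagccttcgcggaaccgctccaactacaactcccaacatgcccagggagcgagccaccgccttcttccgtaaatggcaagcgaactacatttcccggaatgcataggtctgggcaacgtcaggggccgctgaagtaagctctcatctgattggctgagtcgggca
Mrpl22, chr11:58171414-58171663, plus strand: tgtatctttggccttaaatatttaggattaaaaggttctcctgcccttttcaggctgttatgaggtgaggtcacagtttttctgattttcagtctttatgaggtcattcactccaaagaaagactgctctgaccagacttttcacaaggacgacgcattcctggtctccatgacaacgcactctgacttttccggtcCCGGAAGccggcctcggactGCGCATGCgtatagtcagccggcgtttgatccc
Mrpl43, chr19:45006443-45006692, minus strand: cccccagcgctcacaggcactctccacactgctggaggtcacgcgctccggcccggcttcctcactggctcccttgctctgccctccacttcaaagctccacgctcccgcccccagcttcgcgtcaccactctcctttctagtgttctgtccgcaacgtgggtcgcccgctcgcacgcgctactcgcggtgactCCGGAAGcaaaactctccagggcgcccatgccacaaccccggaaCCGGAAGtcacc
Mrps11, chr7:78782881-78783130, plus strand: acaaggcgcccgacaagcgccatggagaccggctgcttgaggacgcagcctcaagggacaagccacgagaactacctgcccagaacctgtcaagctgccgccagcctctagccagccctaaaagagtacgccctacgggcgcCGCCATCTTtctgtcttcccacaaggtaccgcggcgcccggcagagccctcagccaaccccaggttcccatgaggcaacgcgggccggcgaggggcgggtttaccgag

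The 78 genes were expressed at moderate and similar levels in both lines, and their summed level was the same to within 1%. In bulk RNA, less RNA per cell and fewer expressing cells cannot be told apart. Every one of them passed the expression minimum, a mean of 1 CPM over both libraries, as did 12135 transcripts in all. Single genes had between 8.22 and 146 CPM in the p65-null library and between 9.81 and 161 CPM in the wild-type library. Their median level was 46.3 CPM in the p65-null and 45.9 CPM in the wild-type library, and their sum 3946 and 3955 CPM, a ratio of 0.998. As a share of all fragments they took 0.387% of the p65-null library (95% exact binomial interval 0.384% to 0.390%) and 0.403% of the wild-type library (0.401% to 0.406%). This share is of the unadjusted total, so it moves with the most abundant transcripts of each library, and all intervals here cover counting error only.

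With subunits taken by symbol, the split of RNA fragments between large and small subunit genes was the same in both lines. Mrps30 (732 fragments in the p65-null and 1406.5 in the wild-type library) and Mrps18a (910 and 1382.5) count here as small subunit. Their products lie in the large subunit, and the split with these genes moved was not computed. Amounts of the assembled subunits were not measured. Large subunit genes gave 66.8% of the mitochondrial ribosomal protein fragments in the p65-null library (66.4% to 67.2%) and 66.8% in the wild-type library (66.5% to 67.1%). The summed large subunit level was 2636 CPM in the p65-null library against 2643 CPM in the wild-type library, and the summed small subunit level 1310 CPM against 1312 CPM. With subunits by symbol, neither sum differed between the lines by more than 1%. Mrps30 (48.3 CPM in the p65-null and 66.4 CPM in the wild-type library) and Mrps18a (60.1 and 65.2 CPM) both had lower p65-null levels. Moving them would therefore shift the p65-null over wild-type ratio of the large subunit sum down and that of the small subunit sum up. The size of this shift was not computed.

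**Figure D1:**
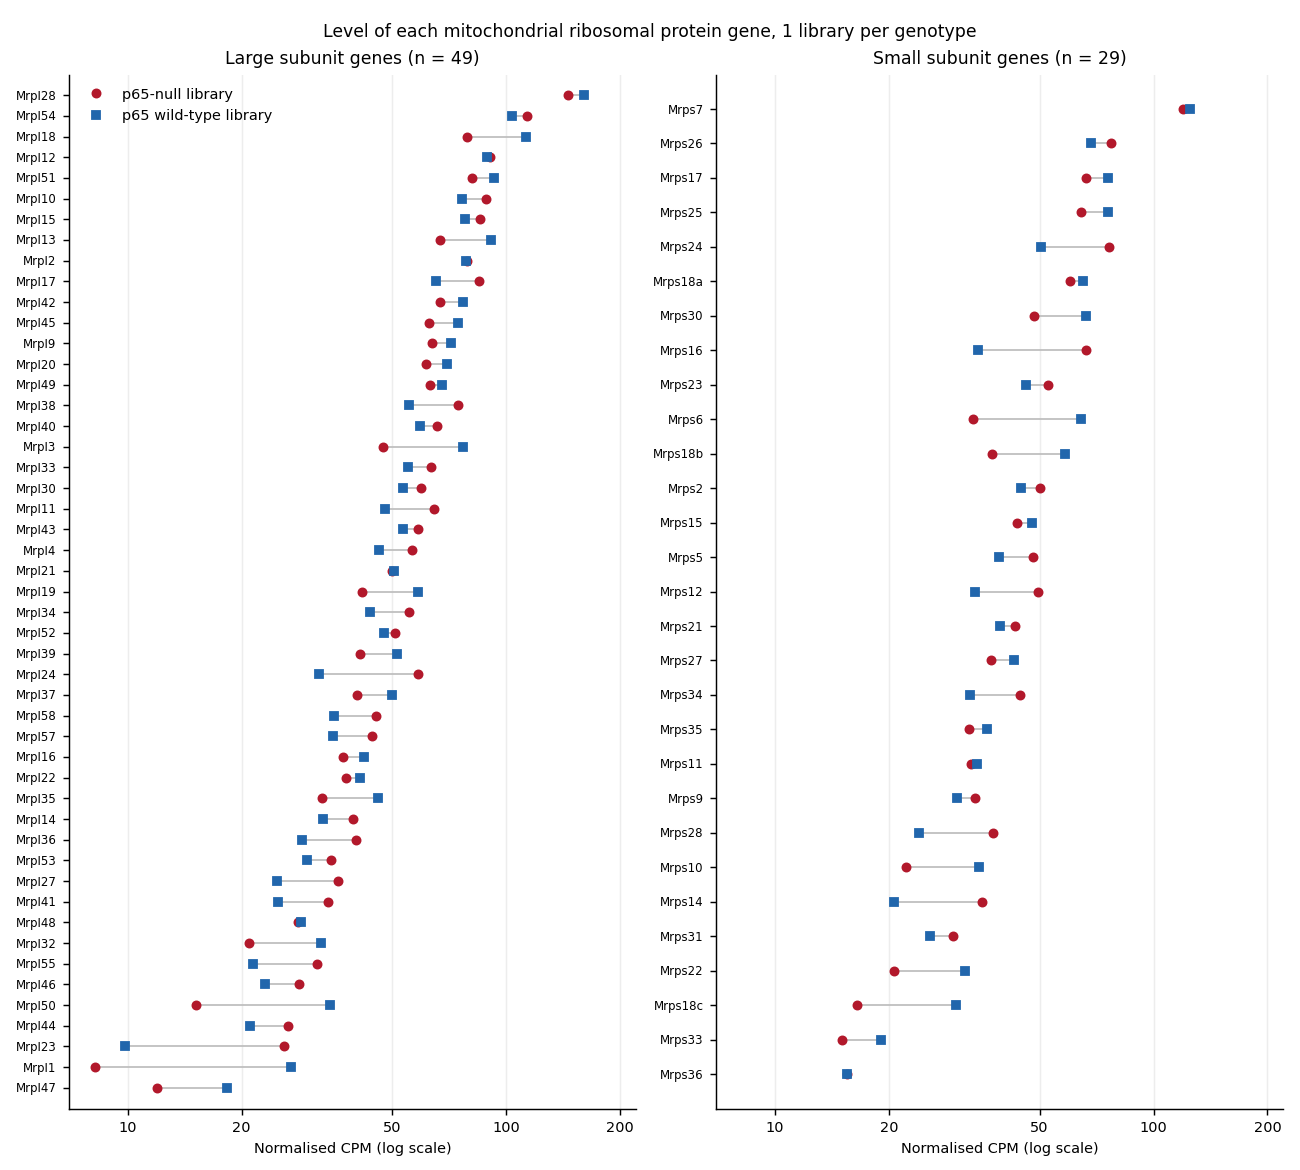
Normalised CPM, on a log axis, of each of the 49 large subunit genes (left panel) and 29 small subunit genes (right panel), sorted by mean level, with the p65-null library as red circles and the wild-type library as blue squares. Most pairs lie close together; the widest gaps belong to Mrpl1, Mrpl23 and Mrpl50, at the low end of the large subunit.

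Per kilobase of annotated transcript, the 5 most abundant genes were all of the large subunit. Mrpl54 led, with 187 CPM per kilobase in the p65-null library and 171 in the wild-type library. Mrpl28 followed with 136 and 150, Mrpl33 with 132 and 115, Mrpl52 with 121 and 114, and Mrpl42 with 100.2 and 115, in the same order of libraries. In log2 ratios these genes lay between -0.20 and 0.20, and the ratios of Mrpl54 (0.13) and Mrpl52 (0.09) turned below 0 with either correction for GC content given further on. Those of Mrpl54, Mrpl52 and Mrpl33 (0.20) also did so when scaled to cytosolic ribosomal protein genes. At the other end stood Mrpl47, with 3.55 CPM per kilobase in the p65-null and 5.43 in the wild-type library, and Mrpl1, with 2.4 and 7.85. Annotated transcripts ran from 405 to 7300 bases, and a long annotated 3′ end that the cells do not use would lower a level per kilobase.

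Few of these genes differed by 2-fold. The log2 ratio is that of normalised CPM, p65-null over wild-type, with an exact 95% Clopper-Pearson counting interval. Past 2-fold on the higher side in p65-null cells was 1 of the 78 genes, Mrpl23, beside 12.2% of all 12135 measured genes. At least 2-fold lower were 2, Mrpl1 and Mrpl50, beside 13.7% of all measured genes. All 3 belong to the large subunit, while 46 of its 49 genes and all 29 small subunit genes lay within 2-fold. Among the 6806 measured genes with mean levels between those of the lowest and the highest member (15.1 to 153 CPM), 6.86% were higher and 11.7% lower by 2-fold or more. At 1.5-fold the numbers were 6 higher and 10 lower, beside 22.2% and 25.0% of measured genes. Of these, 2 higher and 5 lower were large subunit genes, and 4 higher and 5 lower were small subunit genes.

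The ratios scattered narrowly around no change. The median log2 ratio was 0.02 over all 78 genes, beside -0.03 over all measured genes, and it fell on the other side of 0, at -0.04, when libraries were scaled by total fragments. The median was 0.09 for the large and -0.06 for the small subunit; upper quartile scaling put the small subunit at 0.06. The interquartile range was 0.53 for the 78 genes and 1.09 for all measured genes. Log2 ratios smaller than 0.5 in size were found for 58 of the 78 genes (74.4%), beside 46.7% of all measured genes and 52.5% of those in the same range of levels. Counting error was smaller than many of these differences: the interval lay wholly above no change for 35 genes, beside 38.1% of measured genes, wholly below it for 28, beside 41.2%, and held it for 15.

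**Figure D2:**
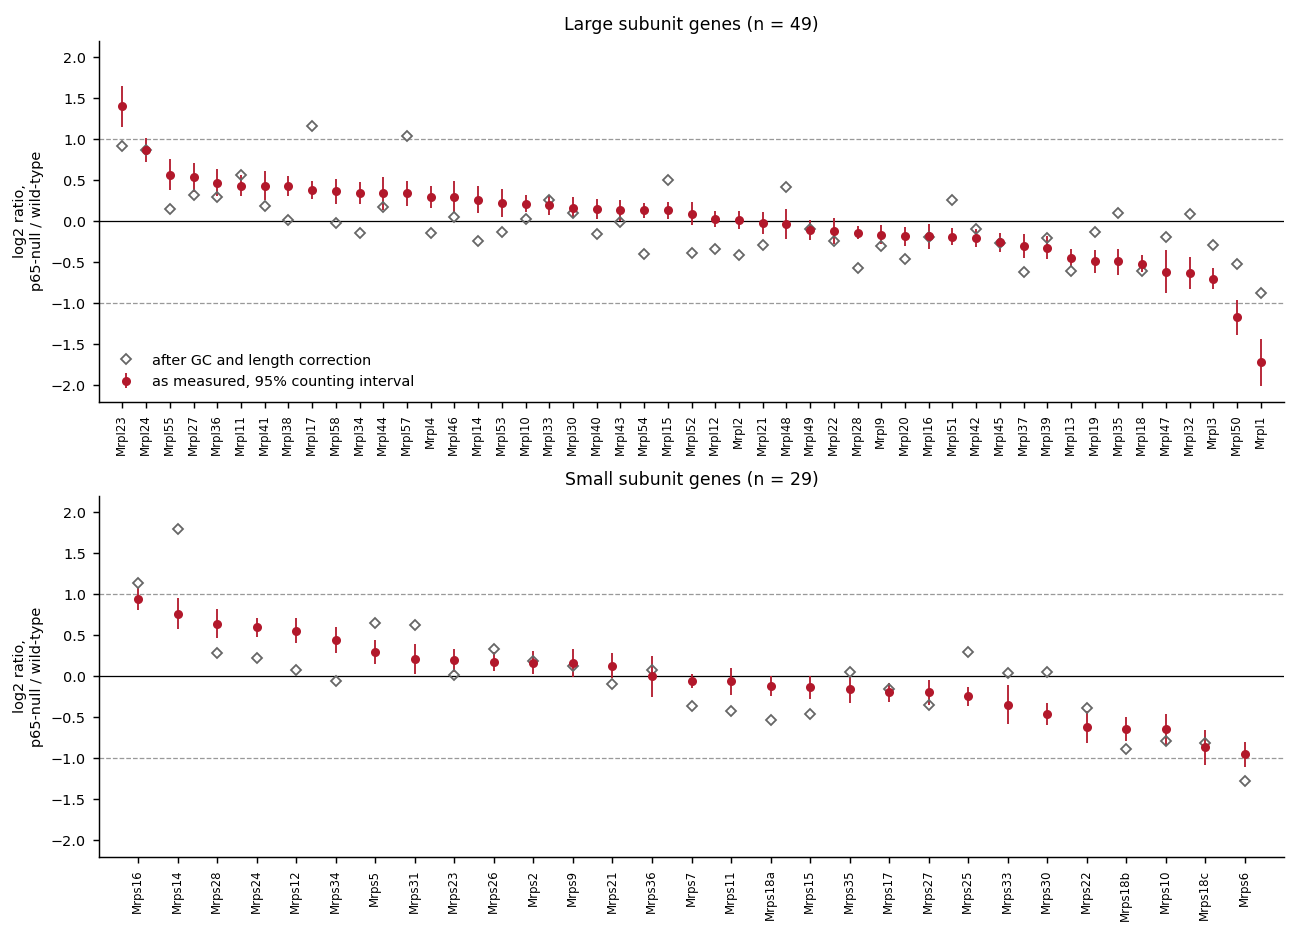
Log2 ratio of normalised CPM, p65-null over wild-type, for each large subunit gene (upper panel) and small subunit gene (lower panel), ranked; red circles with bars are the ratios with their 95% counting intervals, open diamonds the ratios after correction for GC content and length of the annotated transcript, and dashed lines mark 2-fold. Only Mrpl23, Mrpl1 and Mrpl50 pass 2-fold uncorrected, and the diamonds move several genes by more than their counting interval, most of all Mrps14, to 1.80.

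Genes for the rim of the polypeptide exit tunnel held both the highest and some of the lower ratios. Mrpl23 (NM_011288, chromosome 7, 142532467 to 142540747), whose product sits where the new protein leaves the ribosome, had 392 fragments and 25.9 CPM in the p65-null library, against 208 fragments and 9.81 CPM in the wild-type library. The p65-null level was 2.64-fold higher (2.22 to 3.14), a log2 ratio of 1.40 (1.15 to 1.65). With a loess correction for GC content and length it was 0.91, inside 2-fold, over the annotated transcript and 1.15 over the coding sequence. Mrpl24, which encodes another protein of the tunnel exit, had 58.5 CPM in the p65-null and 31.9 CPM in the wild-type library. Its log2 ratio was 0.87 (0.73 to 1.02). Mrpl24 overlaps Rrnad1 on the opposite strand, with 454 fragments in the p65-null and 408.5 in the wild-type library (log2 ratio 0.64). Mrpl47, also of the tunnel exit, stood lower, at 11.9 CPM in the p65-null against 18.3 CPM in the wild-type library. Its log2 ratio was -0.61 (-0.88 to -0.36), and -0.19 corrected over the annotated transcript and -0.07 over the coding sequence. Mrpl47, with 181 fragments in the p65-null and 387.5 in the wild-type library, overlaps Actl6a (1258 and 2070.5) and Ndufb5 (994 and 1218.5) on the opposite strand. Its counts may hold reads of these more abundant genes. Over the 8 genes of the exit tunnel list, 4 ratios were above and 4 below 0, with a median of 0.11.

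The genes next to Mrpl23 on chromosome 7 also had more RNA in the p65-null library: the 3 nearest measured genes on each side had log2 ratios from 0.55 to 6.29. The nearest, Prr33, 25.9 kb before it, had 1.68 CPM in the p65-null and 0.377 CPM in the wild-type library, a log2 ratio of 2.2. Lsp1, 37.8 kb before it, had 120 CPM in the p65-null and 13.8 CPM in the wild-type library, a log2 ratio of 3.12. The imprinted genes H19, 34.8 kb after it, and Igf2, 110.0 kb after it, had log2 ratios of 3.43 and 6.29. H19, a non-coding RNA, had 24.1 CPM in the p65-null and 2.24 CPM in the wild-type library, and Igf2, a growth factor gene, 33.1 and 0.425 CPM. Ctsd, the cathepsin D gene 145 kb before Mrpl23, had 502 CPM in the p65-null and 344 CPM in the wild-type library, a log2 ratio of 0.55. Whether the level of Mrpl23 is tied to those of its neighbours was not tested.

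Mrpl1 had the lowest ratio of all 78 genes. It encodes the relative of the bacterial L1 protein, which forms the stalk beside the exit site for spent tRNA. Mrpl1 (NM_053158, chromosome 5, 96209498 to 96266727) had 124.5 fragments and 8.22 CPM in the p65-null library, against 571 fragments and 26.9 CPM in the wild-type library. The p65-null level was 3.28-fold lower (2.70 to 4.01), a log2 ratio of -1.71 (-2.0 to -1.43). With the same corrections it lay inside 2-fold, at -0.87 over the annotated transcript and -0.77 over the coding sequence. Of the measured genes, 5.11% had lower ratios. The nearest measured genes on either side, Cnot6l 45.3 kb before and Fras1 107 kb after, had log2 ratios of -1.15 and -4.48, and the next after it, Anxa3 and Bmp2k, -1.66 and -2.30. Before Cnot6l, at 2933 kb, came Ccng2 at 0.42.

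Mrpl50, which encodes a protein of the large subunit found only in mitochondria, was the other gene past 2-fold. Mrpl50 (NM_178603, chromosome 4, 49512597 to 49521083) had 230 fragments and 15.2 CPM in the p65-null library, against 724.5 fragments and 34.2 CPM in the wild-type library. The p65-null level was 2.25-fold lower (1.94 to 2.62), a log2 ratio of -1.17 (-1.39 to -0.95), so that its interval reached inside 2-fold. After the same corrections it lay inside 2-fold, at -0.52 over the annotated transcript and -0.76 over the coding sequence. Zfp189, a zinc finger gene whose start lies 83 bases away, had 4.92 CPM in the p65-null and 6.98 CPM in the wild-type library, a log2 ratio of -0.51. Rnf20, 111 kb on, stood at -0.35, and the measured genes farther out ranged from Msantd3 at -0.53 to Grin3a at 2.91.

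The stalk that recruits translation factors is formed by the products of Mrpl10 and Mrpl12 on a base that includes that of Mrpl11. Mrpl11 had 64.5 CPM in the p65-null and 47.7 CPM in the wild-type library, a log2 ratio of 0.44 (0.31 to 0.56). Mrpl10 had 88.4 and 76.3 CPM in the same order, a log2 ratio of 0.21 (0.11 to 0.32) that lay below 0 when scaled to cytosolic ribosomal protein genes or corrected over the coding sequence. Mrpl12 had 90.3 and 88.7 CPM, and its interval held no change. All 3 lay well inside 2-fold.

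Around the catalytic centre and the central protuberance, the part of the large subunit that faces the tRNAs at the top, no gene passed 2-fold. Mrpl3, one of the proteins near the peptidyl transferase centre, had 47.3 CPM in the p65-null and 76.9 CPM in the wild-type library, a log2 ratio of -0.70 (-0.83 to -0.57), the lowest of the 4 genes of that list, whose median was -0.09. In the central protuberance, Mrpl27 had 36.0 CPM in the p65-null against 24.9 CPM in the wild-type library (log2 ratio 0.53, 0.36 to 0.71), while Mrpl18 had 78.6 against 112.5 CPM (-0.52, -0.62 to -0.42). The 7 genes of that list had a median of 0.29, and 5 of them lay above 0; scaled to cytosolic ribosomal protein genes, the median was -0.11. Mrpl18 overlaps the chaperonin gene Tcp1 on the opposite strand. Tcp1 had 11414 fragments in the p65-null and 21445.5 in the wild-type library, a log2 ratio of -0.43. Mrpl27, with 545.5 and 527 fragments in the same order, overlaps Eme1 on the opposite strand (584.5 and 1024, log2 ratio -0.32). The sources used here do not say whether reads were counted by strand.

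Among the other large subunit genes at the ends of the ranking, Mrpl55 had 31.6 CPM in the p65-null and 21.4 CPM in the wild-type library, a log2 ratio of 0.57 (0.38 to 0.75). Mrpl36 had 40.0 and 28.9 CPM in the same order, a log2 ratio of 0.47 (0.30 to 0.63). It overlaps Ndufs6 on the opposite strand, with 564.5 fragments in the p65-null and 602.5 in the wild-type library (log2 ratio 0.39). Mrpl32, whose product is processed by a mitochondrial protease before assembly, had 21 CPM in the p65-null and 32.4 CPM in the wild-type library, a log2 ratio of -0.63 (-0.83 to -0.44). That ratio became 0.09 after correction for GC content and length of its annotated transcript, and stayed below 0, at -0.31, when corrected over the coding sequence.

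Small subunit genes reached neither 2-fold line. Mrps16, which encodes a protein of the small subunit body, had 66.4 CPM in the p65-null and 34.4 CPM in the wild-type library, a log2 ratio of 0.95 (0.81 to 1.09). Mrps12, whose product helps form the decoding centre, had 49.5 and 33.7 CPM in the same order, a log2 ratio of 0.56 (0.41 to 0.71). Mrps34 had 44.5 and 32.7 CPM, a log2 ratio of 0.44 (0.29 to 0.60), which was -0.05 after the correction over the annotated transcript. Mrps34, with 674 fragments in the p65-null and 694 in the wild-type library, overlaps Nme3 on the same strand (83 and 38.5, log2 ratio 1.59). It also overlaps the more abundant Mapk8ip3 on the opposite strand (906 and 1277, log2 ratio -0.01). These 3 genes of the body lay higher in the p65-null library as measured, but the median of the 15 genes of the body and platform was -0.13.

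Of the small subunit head, Mrps14 had 35.2 CPM in the p65-null and 20.7 CPM in the wild-type library, a log2 ratio of 0.76 (0.58 to 0.95). Mrps24, which encodes the relative of a bacterial protein at the entry of the mRNA channel, had 76.3 and 50.5 CPM in the same order. Its log2 ratio was 0.60 (0.48 to 0.72). Mrps24 overlaps Urgcp on the same strand, which had 1329 fragments in the p65-null and 1508.5 in the wild-type library (log2 ratio 0.30). How reads of the overlap were assigned is not given, so the level of Mrps24 is uncertain. Mrps10, also of the head, ran the other way, with 22.1 CPM in the p65-null and 34.6 CPM in the wild-type library, a log2 ratio of -0.64 (-0.84 to -0.46). The head list of 8 genes was split, 4 above and 4 below 0. Mrps28, which is on neither list, had 37.6 CPM in the p65-null and 24.1 CPM in the wild-type library, a log2 ratio of 0.64 (0.47 to 0.82).

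At the low end of the small subunit stood Mrps6, of the platform, with 33.4 CPM in the p65-null and 64.5 CPM in the wild-type library, a log2 ratio of -0.95 (-1.10 to -0.80). Mrps6 shares exon sequence on the same strand with Slc5a3, a myo-inositol transporter gene with 630.5 fragments in the p65-null and 2159.5 in the wild-type library and a log2 ratio of -1.29. The sources used here do not say how reads of this shared stretch were assigned, so the level of Mrps6 is uncertain. Mrps22, which encodes a protein found only in mitochondrial ribosomes, had 20.7 CPM in the p65-null and 31.7 CPM in the wild-type library, a log2 ratio of -0.62 (-0.81 to -0.42).

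The relatives of the single bacterial S18 protein differed among themselves in the size of the gap as measured. Mrps18c had 16.5 CPM in the p65-null and 30.0 CPM in the wild-type library, a log2 ratio of -0.87 (-1.08 to -0.65). Mrps18b had 37.4 and 58.2 CPM in the same order, a log2 ratio of -0.64 (-0.78 to -0.49). Mrps18a had 60.1 and 65.2 CPM, a log2 ratio of -0.12 (-0.24 to 0.00). All 3 ratios lay below 0 under every scaling and correction run. The intervals of Mrps18b and Mrps18c did not meet that of Mrps18a, but with the coding sequence correction Mrps18c stood at -0.38, close to Mrps18a at -0.35, with Mrps18b at -0.76. The products of Mrps18a and of Mrps30 were found in the large subunit when mammalian structures were solved. Mrps30 had 48.3 CPM in the p65-null and 66.4 CPM in the wild-type library, a log2 ratio of -0.46 (-0.59 to -0.33). The ratio of Mrps30 was 0.05 after the correction over the annotated transcript. Mrps36, whose product has also been described as a part of the oxoglutarate dehydrogenase complex, had 15.5 CPM in each library.

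The 48 genes with bacterial relatives and the 30 found only in mitochondria had similar medians. The median log2 ratio was 0.02 for the 48 genes with bacterial relatives, with an interquartile range of 0.61, and 0.05 for the 30 mitochondria-specific genes, with an interquartile range of 0.45. Log2 ratios under 0.5 in size were found for 30 of the 48 (62.5%) and 28 of the 30 (93.3%). The genes past 2-fold were Mrpl23 and Mrpl1 among those with bacterial relatives and Mrpl50 among the mitochondria-specific ones.

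The genes lie apart in the genome, on 17 autosomes, with 11 on chromosome 11 and 0 on the sex chromosomes. In the GENCODE M21 gene models, exons of 23 of them overlap those of another gene in the table, mostly on the opposite strand. Their counts may therefore hold reads of that gene. One such pair is internal: Mrpl46 and Mrps11 overlap on opposite strands in these models, with log2 ratios of 0.29 and -0.06. Their RefSeq spans on chromosome 7 do not meet, as Mrpl46 ends at 78783089 and Mrps11 starts at 78783131. Mrpl44, with a log2 ratio of 0.34, overlaps Wdfy1 on the opposite strand, whose ratio was -1.93.

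The ratios followed base composition, as they did for genes at large. GC content of the annotated transcript ran from 39.6% to 60.6% over the 78 genes. Across genes, which are not independent replicates and share the same pair of libraries, Spearman's rho of the log2 ratio with GC content was 0.37 over the 78 genes, 0.47 over the 49 of the large subunit, 0.15 over the 29 of the small subunit and 0.43 over 11999 measured genes. With GC content of the coding sequence alone, rho was 0.55 over the 78 genes and 0.39 over 11557 measured genes. When the 78 genes were split by GC content alone into 3 groups of equal size, the median log2 ratio was -0.22 in the lowest, 0.13 in the middle and 0.18 in the highest. Measured genes in the same GC ranges had medians of -0.44, 0.04 and 0.28. Mrpl1 and Mrpl50, the genes past 2-fold on the lower side, have GC contents of 41.4% and 42.3%, and Mrpl23 one of 59.0%.

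**Figure D3:**
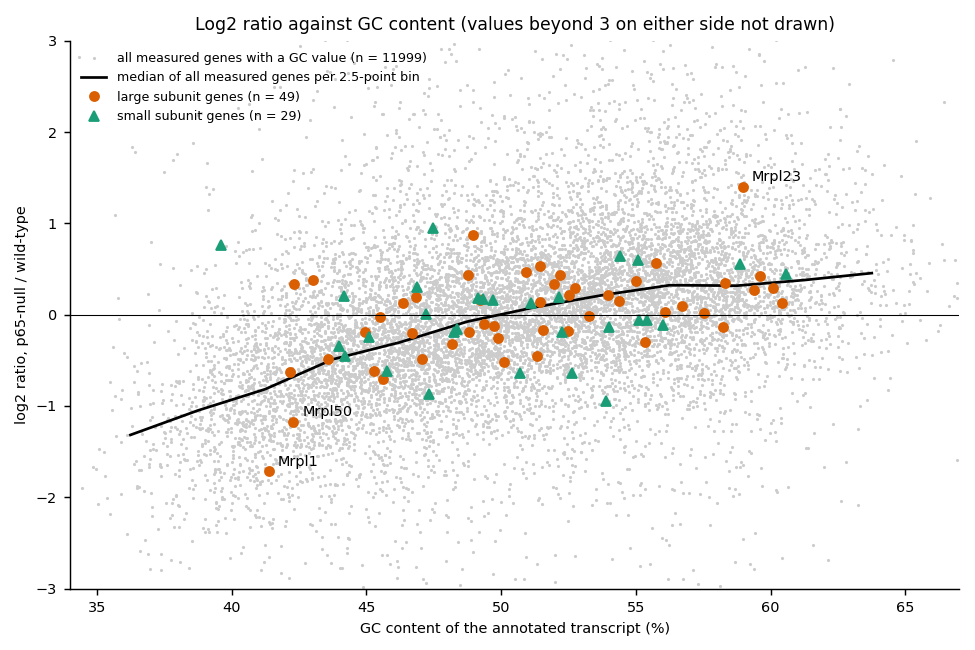
Log2 ratio, p65-null over wild-type, against GC content of the annotated transcript in percent, for 11999 measured genes (grey points, with the median per bin as a black line), the 49 large subunit genes (orange circles) and the 29 small subunit genes (green triangles). The line climbs with GC content; Mrpl1 and Mrpl50 lie below it at the low end, and Mrpl23 above it near 59.0%.

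A loess correction for GC content and then length changed which genes passed 2-fold. With the annotated transcript, Mrps14 (1.80), Mrpl17 (1.16), Mrps16 (1.13) and Mrpl57 (1.03) were at least 2-fold higher, beside 12.4% of measured genes, and Mrps6 (-1.28) at least 2-fold lower, beside 8.19%. After this correction, rho with GC content was -0.03 over 11999 measured genes but -0.35 over the 78 genes and -0.42 over the 29 of the small subunit, so among these genes the relation with GC content changed sign. Mrpl23 then stood at 0.91, Mrpl1 at -0.87 and Mrpl50 at -0.52. Annotated transcripts of some genes are far longer than their coding sequence: that of Mrpl17 has 7300 bases, against 528 coding bases. With the coding sequence in place of the transcript, Mrpl23 (1.15) was the 1 gene at least 2-fold higher, beside 12.5% of measured genes, and 0 genes were at least 2-fold lower, beside 8.96%. Mrpl1 was then at -0.77, Mrpl50 at -0.76, Mrps16 at 0.82 and Mrps14 at 0.75.

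The small gap between the subunit medians depended on these corrections. The large subunit median was 0.15 above that of the small subunit as measured, 0.05 above it with the coding sequence correction and 0.18 below it with the transcript correction (-0.13 for the large and 0.04 for the small subunit). Counting Mrps30 and Mrps18a with the large subunit, where their products lie, left a gap of 0.02. No order of the subunits can be read from these values.

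Lists of other genes that act with the mitochondrial ribosome had medians near 0 and, for assembly factors, translation factors and tRNA charging, wider interquartile ranges than the 0.53 of the 78 genes. The 5 mitoribosomal proteins that carry other symbols had a median log2 ratio of 0.11, and 1 of them was at least 2-fold lower. This was Ptcd3, which encodes an RNA-binding protein of the small subunit, with 46.3 CPM in the p65-null and 100.4 CPM in the wild-type library, a log2 ratio of -1.11; it was -0.53 after the transcript correction. The other 4 ratios lay above 0; Dap3, whose product binds GTP, stood at 0.08, and the highest were Aurkaip1 at 0.69 and Gadd45gip1 at 0.17.

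Assembly factors of the mitochondrial ribosome had a median log2 ratio of -0.04 and an interquartile range of 0.95 over 26 genes, of which 0 were higher and 3 (11.5%) lower by 2-fold or more, beside 12.2% higher and 13.7% lower among all measured genes. The lowest was Noa1, a GTPase gene of small subunit assembly, with 14.1 CPM in the p65-null and 41.3 CPM in the wild-type library, a log2 ratio of -1.55, and -1.83 after the transcript correction. Gtpbp10, a GTPase gene of large subunit assembly, had 8.48 and 20.6 CPM in the same order, a log2 ratio of -1.28 that became -0.23. The third was Grsf1, an RNA-binding protein gene, at -1.09. The highest were the GTPase gene Mtg1 at 0.84 and Mterf4, whose product acts with an rRNA methyltransferase, at 0.81.

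Mitochondrial translation factors had a median of 0.03 and an interquartile range of 0.91 over 16 genes, with 0 higher and 2 (12.5%) lower by 2-fold or more, beside the same 13.7% lower among all measured genes. These were the elongation factor gene Guf1, with 9.64 CPM in the p65-null and 25.9 CPM in the wild-type library (log2 ratio -1.43), and Lrpprc, which stabilises mitochondrial mRNA, with 90.5 and 189 CPM (-1.06); after the transcript correction they stood at -0.71 and -0.74. The highest were Mtif2, the initiation factor gene, at 0.45 and Oxa1l, a membrane insertase gene, at 0.30. The 22 genes for mitochondrial tRNA charging had a median of 0.02 and an interquartile range of 0.79, with 1 higher and 1 lower by 2-fold or more, beside the same 12.2% and 13.7%. The lower one was Yars2 at -1.12. Gatc, at -0.999, stood just inside 2-fold on the lower side.

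Of 19 genes for mitochondrial transcription and for regulators of nuclear mitochondrial genes, 17 were measured, with a median of -0.20. The lowest was Gabpa, which encodes the DNA-binding subunit of GABP, whose ETS core was searched for above, with 32.6 CPM in the p65-null and 78.9 CPM in the wild-type library. Its log2 ratio was -1.28 (-1.43 to -1.13), and -0.36 after the transcript correction. Myc, a transcription factor gene that acts on genes for ribosomes, had 59.0 and 103 CPM in the same order, a log2 ratio of -0.81. The highest was Polg2, of the mitochondrial DNA polymerase, at 0.97, followed by Mterf1a at 0.35. Beside these values, the 26 genes with an ETS core in the window had a median log2 ratio of 0.11, from -0.87 to 0.95, and the 43 without one a median of -0.06, from -1.71 to 1.40. The 8 genes with an NRF-1 core had a median of -0.14 and the 61 without one 0.01. The 8 with a YY1 core had a median of -0.16 and the 61 without one 0.03.

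The respiratory chain and the cytosolic ribosome, the complexes the mitochondrial ribosome serves and resembles, had higher medians than the mitochondrial ribosomal protein genes, as measured. The median log2 ratio was 0.36 over 78 measured genes of the respiratory chain and ATP synthase, with 60 of them above 0, and 0.45 over 83 measured cytosolic ribosomal protein genes, with 76 above 0. These medians were 0.18 and 0.27 after the transcript correction, but 0.37 and 0.40 after the coding sequence correction. The mitochondrial ribosomal protein genes had a median of -0.07 after either correction. Scaling to the cytosolic ribosomal protein genes put the respiratory chain at -0.04 and the mitochondrial ribosomal protein genes at -0.39. In that scaling the median of all measured genes was -0.43, and 0 mitochondrial ribosomal protein genes were at least 2-fold higher, beside 7.62% of measured genes, and 10 at least 2-fold lower, beside 24.7%.

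In the respiratory chain the highest members were Sdhc, of succinate dehydrogenase, at 0.95 and Atp5e, of ATP synthase, also at 0.95. The 1 member at least 2-fold lower was Cox7b2, a cytochrome oxidase subunit gene with 0 fragments in the p65-null and 80.5 in the wild-type library, at least 19.2-fold lower against a floor of 3 fragments per library. Next lowest was Cox7b at -0.74. Among the cytosolic ribosomal protein genes, Rpl37a, with 1103 CPM in the p65-null and 545 CPM in the wild-type library, was the 1 gene at least 2-fold higher, at 1.02. Rps27l stood at 0.90, Rpl7l1 at -0.55 and Rpl6 at -0.49. Many cytosolic ribosomal protein genes have near-identical pseudogene copies, and the sources used here do not say how reads were shared among copies.

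**Figure D4:**
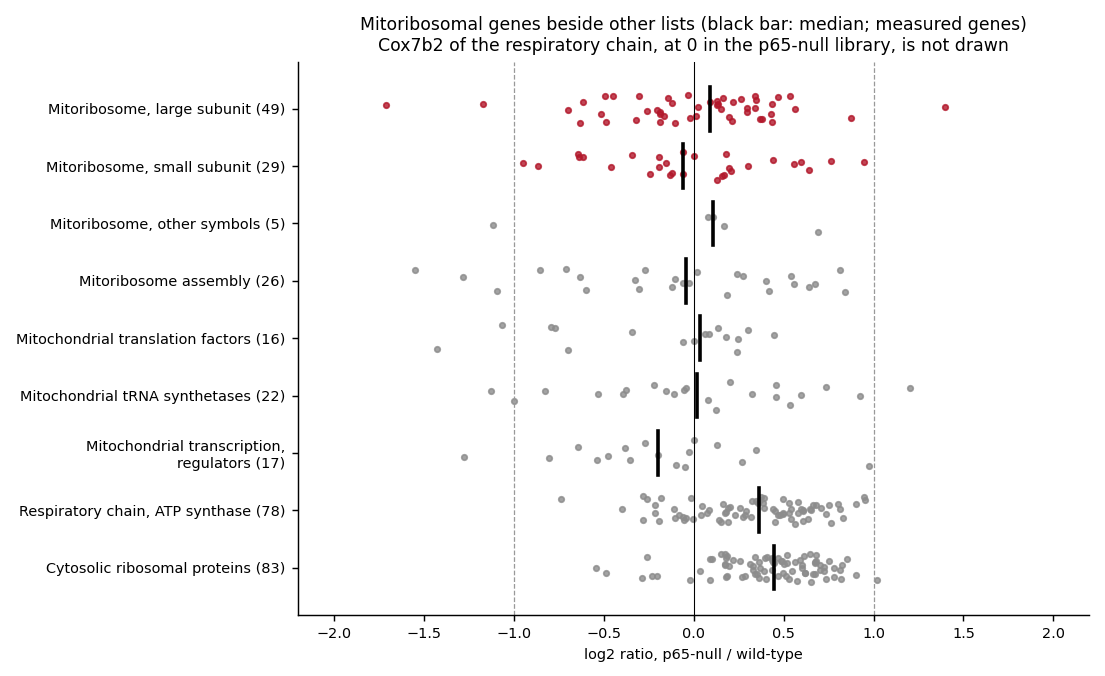
Log2 ratio, p65-null over wild-type, of each measured gene (points) in the large and small subunit of the mitochondrial ribosome (red) and in 7 other lists (grey), with the median of each list as a black bar and 2-fold as dashed lines; the vertical spread of points has no meaning, and Cox7b2 is not drawn. The subunit medians lie at 0.09 and -0.06, and those of the respiratory chain and the cytosolic ribosomal proteins at 0.36 and 0.45; the subunit medians change sides of 0 under some scalings, and the respiratory chain median does so when scaled to the cytosolic ribosomal protein genes.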

How the data were processed

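RNA was sequenced from cultured cells, per the labels' protocols; per the submitters' processing notes, bcl2fastq 2.16, STAR 2.4, HOMER, edgeR and mm10 were used, in roles not given there. The deposited table is named raw counts, but the authors' values are a scaled signal, since they are multiples of a fractional step and both columns have nearly the same sum (18117930.07 for p65-null, 18117934.3 for wild-type). Counts had been assumed when the comparisons were planned. Within a column, values were whole multiples of 1 step (0.587 and 0.436, in the same order) for 99.987% of the p65-null and 100.0% of the wild-type values low enough to check, within a tolerance of 0.0055; 2 steps were taken as 1 fragment. A count test on these reads has no replicate to estimate the spread from, so none was made and it calls no genes.

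Symbols came from a RefSeq gene table (16743 transcripts) or GENCODE M21 (83), and 55 had none. Coordinates are those of GRCm38 (mm10). TMM factors (edgeR 4.0.16, R 4.3.3) were 0.981 for p65-null and 1.02 for wild-type; intervals came from scipy 1.17.1. A 0 was set to 3 fragments. GC content and length were known for all 78 genes and 11999 of 12135 measured transcripts; the loess (statsmodels 0.14.6, span 0.3) fitted GC content, then length. The interval step was run on counts simulated with counting error only, and a loess on GC content was run on an added straight GC trend. The length step was not tested. Members, lists and rules were chosen with earlier results of these data known. With their own values stand, per subunit, the 6 highest and 6 lowest ratios, the 5 highest levels per kilobase, all genes past 2-fold, the stalk and S18 genes, Mrps30, Mrps36 and the 2 highest and 2 lowest of each other list. Mrpl17, Mrpl22, Mrpl43, Mrpl44, Mrpl46, Mrpl57, Mrps11, Grsf1 and the neighbouring or overlapping genes were named after their values were seen. One result under this rule is not reported here. Alternatives included DESeq2 1.42.0 size factors.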

Additional observations from a re-analysis of the deposited data

How the results depend on the processing

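Counts of genes at least 2-fold apart moved most. Of the 78 genes, the 1 higher became 2 with upper quartile factors (1 of them of the small subunit), 0 when scaled to cytosolic ribosomal protein genes (0 for the large subunit), 4 with the transcript GC and length correction (2 per subunit) and 6 at 1.5-fold (2 large, 4 small). The 2 lower became 10 when scaled to cytosolic ribosomal protein genes (5 per subunit), 1 with the transcript correction (0 large, 1 small), 0 with the coding sequence correction (0 large), which was chosen after seeing the data, 1 where the whole interval had to pass 2-fold (1 large) and 10 at 1.5-fold (5 per subunit). For the small subunit, total fragments gave 1 lower, and so did adding the 5 proteins under other symbols. Scaled to cytosolic ribosomal protein genes, the medians were -0.39 for all, -0.32 for the large and -0.46 for the small subunit. The large subunit median was -0.13 with the transcript and -0.056 with the coding sequence correction, and the large minus small difference was -0.18 with the transcript correction. The cause of these moves was not tested, beyond the uniform shift that a scaling applies to every gene. Upper quartile scaling moved the median of all measured genes to 0.09.

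DESeq2 size factors, a prior count of 2, no expression minimum, a minimum of 5 CPM, leaving out the 10 most abundant genes, thinning the deeper library and leaving out Mrps36 moved none of these counts or medians by more than 1.5 times or the median half-width of the counting intervals, 0.14. Of the 33 genes with their own values, the transcript correction moved 25 and the coding sequence correction 24 beyond their counting interval. No paired analysis was possible because each genotype has 1 library, and for the same reason no library could be left out. Depth gave at least 124.5 p65-null and 208 wild-type fragments per gene, so counting error was small, while the spread between cultures is unknown.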
